A study of Mus musculus with 14 samples.

Results

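Fatty acids are burned in mitochondria and shortened in peroxisomes, and 34 genes for the 2 routes were followed here among the 35275 genes of a brown adipose RNA sequencing table. The members were chosen by name and matched to the table's Ensembl identifiers, and all 34 were present and above the limit on low values. They comprise 19 genes for mitochondrial proteins, 10 for peroxisomal proteins and 5 whose products act in several compartments. The tissue came from 8-week-old C57BL/6 mice that all carried floxed Lrpprc alleles (LrpprcFF); Lrpprc encodes an RNA-binding protein that stabilises mitochondrial messenger RNA. Knockouts (LrpprcFF Ucp1-Cre) also carried a Cre recombinase driven by Ucp1, a gene of thermogenic adipocytes, so cells that do not express Ucp1 keep Lrpprc. There were 4 controls and 4 knockouts at 22 °C, which is room temperature, and 3 controls and 3 knockouts at 30 °C, which is thermoneutral for mice. Each library is 1 animal, and nothing in the labels says that animals were littermates or processed together.

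Long-chain fatty acids enter mitochondria as carnitine esters, made by Cpt1 enzymes, moved by Slc25a20 and converted back by Cpt2. Each turn of mitochondrial β-oxidation is dehydrogenation, hydration, another dehydrogenation and thiolysis, and the electrons of the acyl-CoA dehydrogenases reach the respiratory chain through the electron transfer flavoproteins. Peroxisomes take in very long and branched acyl-CoAs through ABCD transporters, oxidise them with acyl-CoA oxidases that pass electrons to oxygen, and hand on shortened chains as carnitine esters. In brown fat mitochondrial oxidation feeds heat production, and many genes of both routes are targets of PPAR nuclear receptors and the coactivator PGC-1α.

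Promoter stretches are given for members that the results turn on, as RefSeq has them on GRCm38.p6; 28 of the 34 members have a promoter entry in the RefSeq table. Hadha and Hadhb, the 2 subunits of the trifunctional protein, are read in opposite directions from a gap of 85 bases at chr5:30155163-30155247, shown on the plus strand with Hadhb to its right. Acot2, the member with the largest knockout effect, is shown with the 250 bases before its start, chr12:83987611-83987860 on the plus strand. Acaa1b, the thiolase copy that differed between the temperature groups, is shown with the 250 bases at chr9:119157094-119157343 on the minus strand. Those groups also differed in sex-linked genes, so that difference cannot be given to temperature rather than sex. Scp2, a peroxisomal thiolase lower in knockouts at 30 °C, is shown with the 250 bases at chr4:108118548-108118797 on the minus strand. Capitals mark the letters AGGTCA, the core motif read by nuclear receptors such as PPARs.
Hadha and Hadhb: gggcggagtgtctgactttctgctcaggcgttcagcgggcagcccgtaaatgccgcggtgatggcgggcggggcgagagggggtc
Acot2: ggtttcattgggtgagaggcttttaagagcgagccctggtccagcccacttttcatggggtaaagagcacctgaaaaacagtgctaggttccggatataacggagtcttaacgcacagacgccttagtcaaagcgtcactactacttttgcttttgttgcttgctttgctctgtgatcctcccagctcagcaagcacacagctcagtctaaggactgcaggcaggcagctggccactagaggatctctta
Acaa1b: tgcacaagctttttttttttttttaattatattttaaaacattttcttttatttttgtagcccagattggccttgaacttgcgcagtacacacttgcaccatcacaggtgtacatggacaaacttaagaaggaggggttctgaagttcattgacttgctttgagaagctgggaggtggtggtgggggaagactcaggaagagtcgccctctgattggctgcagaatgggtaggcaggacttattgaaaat
Scp2: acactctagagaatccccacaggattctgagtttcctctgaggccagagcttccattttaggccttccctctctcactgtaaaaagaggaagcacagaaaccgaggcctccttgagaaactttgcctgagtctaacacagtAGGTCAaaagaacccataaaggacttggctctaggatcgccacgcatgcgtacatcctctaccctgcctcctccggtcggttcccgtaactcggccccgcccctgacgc
The core motif was found on either strand within 250 bases before the start in 5 of the 28 members with an entry (17.9%), Acadm, Scp2, Echs1, Acadvl and Cpt1a, and in 15.8% of 27025 genes. The letters TCAAGGTCA, which contain that core and are read by estrogen-related receptors, were in 0 of the 28 and in 0.422% of all genes. The pattern TGATGNAAN, where N is any base, is a form of the element that ATF4 binds and was in 1 member, Echs1, and in 3.89% of all genes. These shares are a description of letters in the window and no measure of binding.

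The targeted gene followed the labels. Scaled Lrpprc FPKM was 25.3 to 57.3 in controls and 8.85 to 11.2 in knockouts at 22 °C, and 30.3 to 32.7 in controls and 4.97 to 8.56 in knockouts at 30 °C. Values are fragments scaled to gene length and depth (FPKM), multiplied by 1 factor per library so that the typical nuclear gene has the same level in every library. The factors were 1.06 to 1.22 in controls and 0.835 to 0.955 in knockouts, so a fold change between genotypes is relative to the typical nuclear gene. The depth was 15.9 to 21.3 M fragments, and the fewest reads of any member in a library were 327, for Pecr. All 8 animals at 22 °C had Ddx3y, a Y-linked gene, at 14.5 to 23.1 FPKM and Xist at 0 to 0.0141, while all 6 at 30 °C had Ddx3y at 0 to 0.0244 and Xist at 9.01 to 18.4. The labels give no sex, and temperature and sex cannot be told apart in these data. Reads of some members may be split with near-identical copies or overlapping genes: Acaa1a and Acaa1b are 96.6% identical over 1428 bases, Acot2 and Acot1 95.1% over 1274, Hadhb and the pseudogene Gm13910 99.8% over 1428, and Scp2 and Scp2-ps2 99.6% over 1371. Most exon bases of Cpt1b (81.4%) and Etfb (53.0%) also lie in another annotated gene of the same strand, and 42.9% of those of Acadvl lie in Dvl2 on the other strand. At 22 °C the identifiers of controls 1 and 2 begin with E, like those of all other animals, and those of controls 3 and 4 with R, a letter the labels do not explain. Both E controls were above both R controls in 26 of the 34 members and below them in 1. This was not counted over all genes, so it cannot be read as particular to the members. The use of strand in counting is not given in the sources used here.

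At 30 °C the knockouts had less messenger RNA for the mitochondrial spiral, and the 9 mitochondrial genes that fell had log2 fold changes of -0.60 to -0.98. Hadh, the short-chain 3-hydroxyacyl-CoA dehydrogenase, fell to 51.1% of the control mean and the thiolase gene Acaa2 to 54.3%. Acot2, a thioesterase of the mitochondrial matrix, rose to 309% of it. Of the 34 members, 15 were called lower and 1 higher at an adjusted p under 0.05 (limma, Benjamini-Hochberg over all 13079 genes tested), where 5.28% of all genes were called lower and 8.82% higher. The median log2 fold change of the members was -0.61, against 0.06 for all genes tested. Every knockout lay below every control for 26 members, an arrangement found in 14.6% of all genes. With other scalings the split of members called was 1 higher and 4 lower on the FPKM as deposited, 1 and 7 after quantile normalization, and 1 and 8 with the nuclear total set equal. These scalings moved the median of all genes to 0.31, -0.05 and 0.19, and the median of the members stayed below it, at -0.31, -0.47 and -0.45. Over all genes the calls were 4280 higher and 291 lower on the FPKM as deposited, against 1154 and 691 with the scaling used here. Leaving out knockout 1 or 3, or control 2 or 3, of this temperature brought the number of members called from 16 to 7, 6, 7 and 7. Without the 2 R controls, which enter this comparison only through the shared spread, 25 members were called lower and 1 higher.

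**Figure D1:**
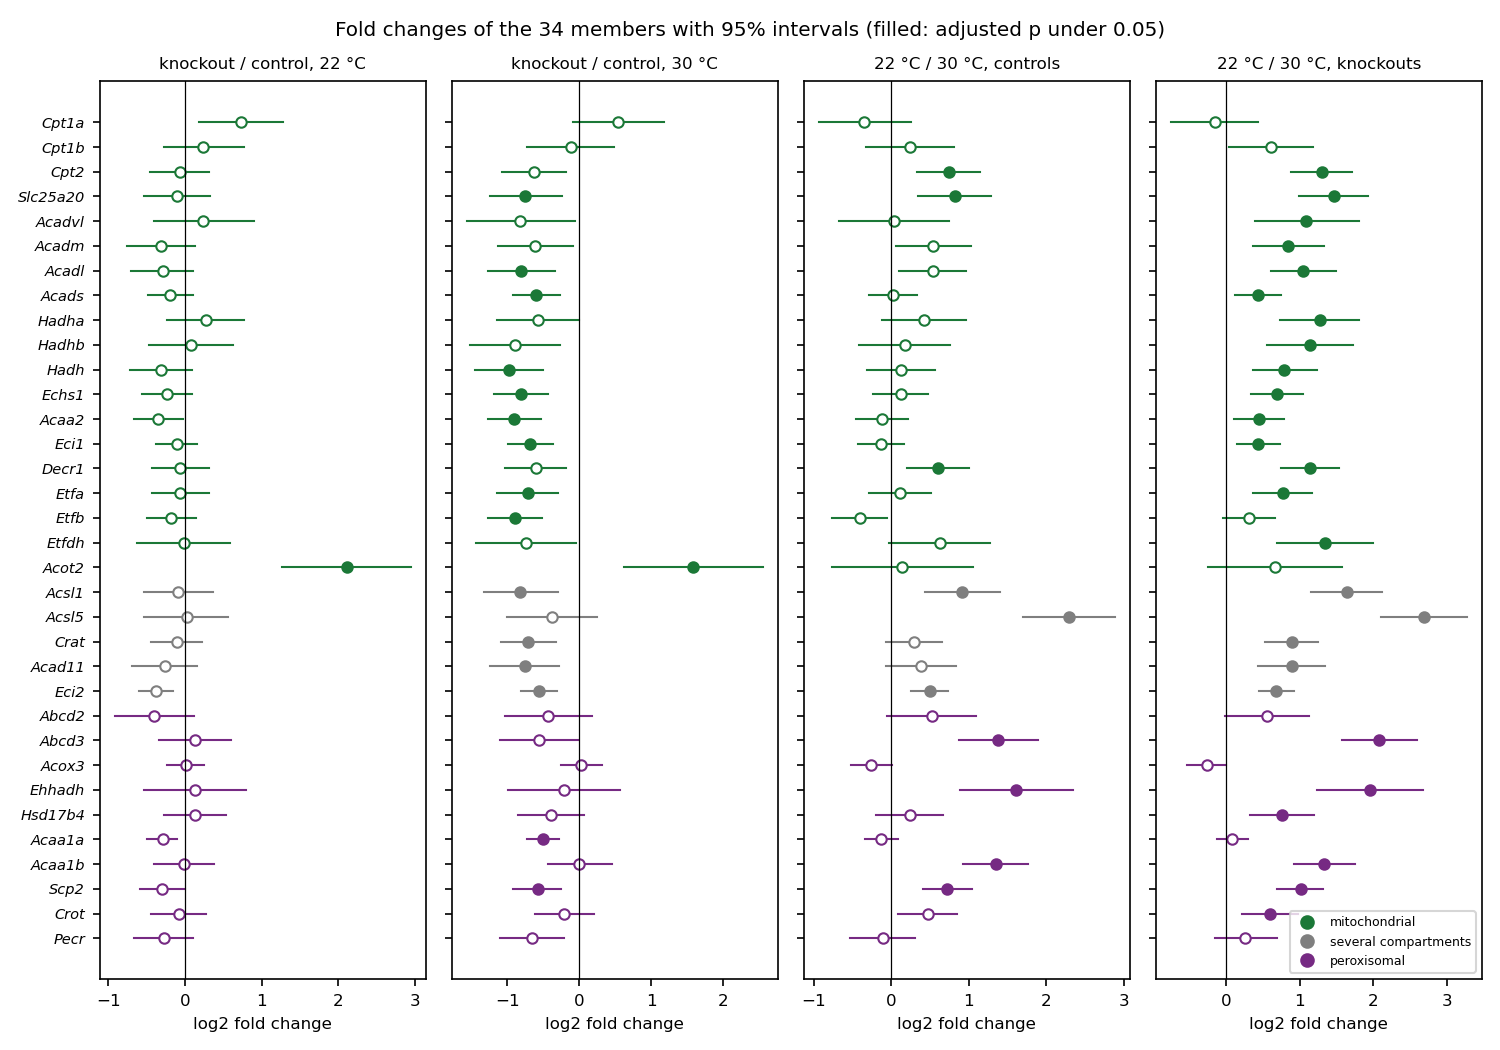
Log2 fold changes (x axis) of all 34 members (rows) in 4 comparisons, with points for the estimate, lines for the 95% interval and filled points for an adjusted p under 0.05 (limma); green is mitochondrial, grey several compartments, purple peroxisomal. In the panel of knockout against control at 30 °C, 30 of the 34 estimates are below 0, and Acot2 stands to the right in both knockout panels.

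Marker genes of other cell types of the tissue also differed at 30 °C. The summed scaled FPKM of 12 macrophage markers was 90.5 to 376 in controls and 565 to 2008 in knockouts, with 10 of the 12 called higher, and that of 6 fibroblast markers was 241 to 290.4 and 478 to 960.1, with all 6 called higher. The sum of 10 brown adipocyte markers was 13844 to 17233 in controls and 7438 to 9240 in knockouts, with 5 called lower (Ucp1, Cox8b, Adipoq, Fabp4 and Cidea) and 0 higher. Over all genes 8.82% were called higher and 5.28% lower at 30 °C. No endothelial, skeletal muscle, T cell or B cell marker tested was called there. Skeletal muscle markers summed to 77.3 to 16451 in controls and 2515 to 10334 in knockouts, and 12 macrophage markers at 22 °C to 43.2 to 61.6 and 66.6 to 185. Fewer brown adipocytes and less RNA per brown adipocyte cannot be told apart in whole tissue, and the part of these shifts in the members' values was not tested.

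In the carnitine shuttle 1 of the 4 genes was called at 30 °C. Slc25a20, the carnitine-acylcarnitine translocase, stood at 193, 250.1 and 209 scaled FPKM in the controls at 30 °C and at 127, 154 and 108 in the knockouts. Every knockout was below every control, and the change on the log2 scale was -0.75 ± 0.23 (SE; limma adjusted p = 0.0498). The Slc25a20 call is at the edge of the threshold: it held in 5 of 10 alternative settings and in 5 of 14 fits without 1 animal. Cpt2, which remakes acyl-CoA in the matrix, had 124 ± 5.47 (SD, n = 3) in controls and 79.4 ± 3.01 (SD, n = 3) in knockouts, and missed the threshold (log2 change -0.63, SE 0.20, limma adjusted p = 0.0562). Both Cpt1 forms, the regulated entry step, were weakly expressed. Cpt1a, the liver form, was 5.47 to 6.51 in controls and 7.13 to 11.8 in knockouts, with every knockout above every control and no call (log2 change 0.54, SE 0.30, limma adjusted p = 0.253).

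Cpt1b, the muscle and brown fat form, was 7.70, 8.36 and 8.63 in controls and 5.89, 10.9 and 6.41 in knockouts at 30 °C. At 22 °C it was 8.42, 10.4, 10.5 and 10.4 in controls and 18.8, 10.7, 14.7 and 6.68 in knockouts. The groups overlapped at both temperatures, and the 95% interval of the log2 fold change was -0.73 to 0.49 at 30 °C and -0.28 to 0.77 at 22 °C. At 30 °C the muscle marker sums of the same animals, in the same order, were 16451, 5636 and 77.3 in controls and 10334, 2515 and 8003 in knockouts. The part of muscle RNA in the Cpt1b values was not tested.

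All 4 acyl-CoA dehydrogenases of the mitochondrial list, which take fatty acids of different chain length, had estimates below 0 at 30 °C, and 2 were called. Acadl, the long-chain enzyme, was 786, 970.3 and 946 scaled FPKM in controls and 491, 643 and 427 in knockouts, with no overlap (log2 change -0.81, SE 0.22, limma adjusted p = 0.0268). Acads, the short-chain enzyme, was 201, 259.5 and 222 in controls and 145, 160.5 and 142 in knockouts, also with no overlap (log2 change -0.60, SE 0.15, limma adjusted p = 0.0217). The Acadl call held in 6 of 10 alternative settings and the Acads call in 7, and each held in 10 of 14 fits without 1 animal. Both calls were lost in all 3 other scalings and without control 2 or 3, or knockout 1 or 3, at 30 °C. Acadm, the medium-chain enzyme, was 637, 789.9 and 791 in controls against 454, 590.3 and 416 in knockouts; its ranges did not overlap but the adjusted p was 0.11, with a log2 fold change of -0.61. Acadvl, the very-long-chain enzyme of the inner membrane, had the widest interval of the 4, -1.57 to -0.06. At 22 °C the controls of Acadl were 1786, 1556, 1032 and 1002 and the knockouts 1135, 1007, 1032 and 1087. Acadm was 1551, 1346, 868 and 733 in those controls and 881, 815, 854 and 908 in the knockouts, and Acads 274, 253, 225 and 178 in controls and 217, 195, 216 and 179 in knockouts. In all 3 genes controls 1 and 2 stood above all 4 knockouts, and control 4 was below the highest knockout.

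The steps from hydration to thiolysis held the members with the largest decreases. Hadh was 359, 406 and 369.8 scaled FPKM in controls and 189.8, 231 and 159 in knockouts at 30 °C, a log2 fold change of -0.98 ± 0.22 (SE; limma adjusted p = 0.0109). Acaa2, the mitochondrial 3-ketoacyl-CoA thiolase, was 1699, 2103 and 1830.0 in controls and 886, 1335 and 840.0 in knockouts (log2 change -0.91, SE 0.17, limma adjusted p = 0.00474). Echs1, the short-chain enoyl-CoA hydratase, was 169.6, 191 and 181 in controls and 95.1, 119 and 94.3 in knockouts (log2 change -0.81, SE 0.18, limma adjusted p = 0.00979). No knockout reached a control in any of these 3 genes. Among the 16 members called at 30 °C, Echs1 was the one whose call held in all 10 alternative settings and all 14 fits without 1 animal; the Hadh call held in all 10 settings and in 13 of the 14 fits. At 22 °C Hadh was 534, 507, 403 and 264 in controls and 319, 315, 351 and 342 in knockouts, and Echs1 was 253, 230.3, 172 and 145 in controls and 170.5, 157, 173 and 165 in knockouts, so the knockouts lay inside the spread of the controls. Acaa2 was 1873, 1776, 1644 and 1602 in controls and 1301, 1255, 1508 and 1361 in knockouts at 22 °C, with every knockout below every control and no call (log2 change -0.35, SE 0.15, limma adjusted p = 0.263).

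Hadha and Hadhb, the long-chain trifunctional protein, were not called at 30 °C. Hadha was 336, 457 and 388 in controls and 236, 323 and 234 in knockouts, with no overlap and a log2 fold change of -0.58 ± 0.27 (SE; limma adjusted p = 0.176). At 22 °C Hadha was 746, 651, 516 and 299.5 in controls and 700.1, 614, 563 and 649 in knockouts, and the groups overlapped. Hadhb had 488 ± 65.5 (SD, n = 3) in controls and 264 ± 58.03 (SD, n = 3) in knockouts at 30 °C (log2 change -0.90, SE 0.29, limma adjusted p = 0.0575). Both were called at 30 °C with sample weights, without the R controls and without control 4 of the 22 °C group, and Hadhb also in a fit to the compared groups alone and without control 1 of that group or knockout 2 of the 30 °C group. The ratio of Hadha to Hadhb FPKM, for these genes that share the short gap printed above, was 0.746 to 0.861 in controls and 0.978 to 1.03 in knockouts at 30 °C, with every knockout above every control. At 22 °C it was 0.89 to 1.06 and 0.991 to 1.22, with overlap.

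The auxiliary enzymes for unsaturated chains and the electron transfer proteins held 3 further genes that fell. Eci1, the enoyl-CoA isomerase, was 733, 887 and 806 in controls and 478, 606 and 441 in knockouts at 30 °C, with no overlap (log2 change -0.68, SE 0.15, limma adjusted p = 0.00979). Etfa, the alpha subunit of the electron transfer flavoprotein, was 846, 1025 and 1049 in controls and 536, 698 and 546 in knockouts (log2 change -0.72, SE 0.20, limma adjusted p = 0.0312). Etfb, its beta subunit, was 2108, 2443 and 2181 in controls and 1123, 1561 and 992 in knockouts (log2 change -0.90, SE 0.17, limma adjusted p = 0.00561). Both subunits were separated between genotypes in every animal, but on quantile-normalized values the Etfb log2 fold change was -0.19 and its call was lost. The Etfa call held in 6 of 10 alternative settings and in 10 of 14 fits without 1 animal. That of Eci1 held in 8 of 10 settings and in all 14 fits. Etfdh, which passes the electrons to ubiquinone, and Decr1, the dienoyl-CoA reductase, had log2 fold changes of -0.74 and -0.60 and were not called (limma adjusted p = 0.153 and 0.0596). At 22 °C Etfb was 1598, 1592, 1598 and 1989.6 in controls and 1541, 1330.4, 1727 and 1389.7 in knockouts. Etfa was 1352, 1276, 931 and 745 in controls and 1055, 951, 1019 and 988 in knockouts, and Eci1 832, 792, 647 and 680.5 in controls and 740.0, 626, 717 and 644 in knockouts. The groups overlapped in all 3 of these genes at 22 °C.

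Acot2 was the member that rose in knockouts at both temperatures. Its scaled FPKM at 22 °C was 46.5, 40.4, 42.4 and 34.7 in controls and 464, 236, 80.4 and 117 in knockouts. At 30 °C it was 33.98, 40.6 and 36.2 in controls and 93.8, 134 and 114 in knockouts. The 7 controls ranged from 33.98 to 46.5 and no knockout was below 80.4, while the knockouts at 22 °C ranged from 80.4 to 464. On the log2 scale the change was 2.11 ± 0.39 (SE; limma adjusted p = 0.0169) at 22 °C and 1.59 ± 0.45 (SE; limma adjusted p = 0.0336) at 30 °C. It was the 1 member of 34 called at 22 °C, where 0.91% of all genes were called higher and 1.06% lower. That call was lost when only the compared groups were fitted (adjusted p = 0.0784), without the 2 controls whose identifiers begin with R (0.0674) and without knockout 2 (0.0678). At 30 °C it was lost without the filter on low values (0.0641) and in each of the 6 fits that left out 1 animal of that temperature (0.0683 to 0.0947). The near-identical Acot1, which encodes the cytosolic form, was 4.96 to 12.8 in controls and 4.25 to 10.3 in knockouts at 22 °C, and 1.22 to 2.86 and 0.941 to 4.64 at 30 °C, with no call (-0.46 and -0.02 log2; limma adjusted p = 0.583 and 0.983).

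**Figure D2:**
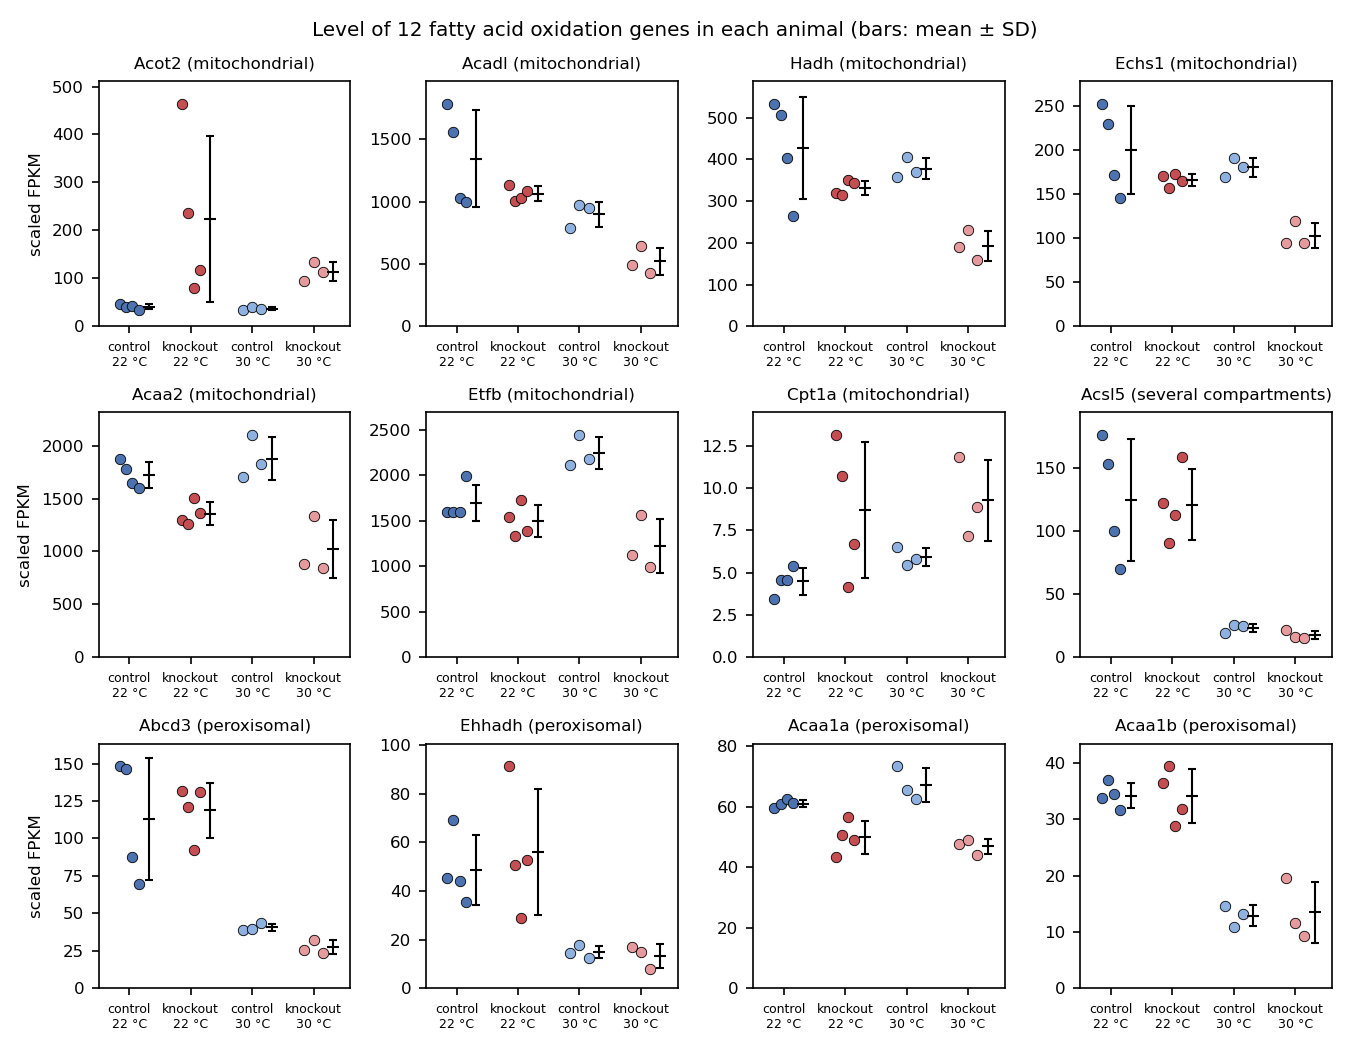
Scaled FPKM (y axis, from 0) of 12 members in each animal (points) by group, with the mean ± SD beside them. Acot2 knockouts at 22 °C spread from 80.4 to 464, and Hadh, Echs1, Acaa2 and Etfb knockouts at 30 °C lie below every control of that temperature.

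Of the 5 genes whose products act in several compartments, 4 fell in knockouts at 30 °C. Acsl1, an acyl-CoA synthetase that activates long-chain fatty acids, was 233, 218 and 232 in controls and 138, 132 and 118 in knockouts (log2 change -0.82, SE 0.24, limma adjusted p = 0.0381). Crat, the carnitine acetyltransferase that buffers acetyl-CoA, was 177, 182 and 182 in controls and 116, 113 and 101 in knockouts (log2 change -0.71, SE 0.18, limma adjusted p = 0.0194). Acad11, an acyl-CoA dehydrogenase, was 41.6, 40.3 and 40.99 in controls and 21.7, 33.1 and 18.5 in knockouts (log2 change -0.76, SE 0.23, limma adjusted p = 0.0394). Controls and knockouts were apart in each of these genes. Eci2, an enoyl-CoA isomerase of mitochondria and peroxisomes, was 57.2, 60.8 and 53.97 in controls and 39.6, 40.9 and 34.96 in knockouts (log2 change -0.56, SE 0.12, limma adjusted p = 0.00804). It was also lower in every knockout than in every control at 22 °C, 64.6, 60.1, 60.6 and 64.03 against 94.1, 89.2, 72.4 and 71.9, without a call (log2 change -0.38, SE 0.10, limma adjusted p = 0.0759). The other three called genes overlapped at 22 °C. There Acsl1 was 591, 540.3, 427 and 252 in controls and 449.6, 409.9, 343 and 422 in knockouts, and Crat 279, 249, 201 and 171 in controls and 253, 206, 163 and 206 in knockouts. Acad11 was 73.95, 61.5, 45.4 and 40.4 in controls and 49.5, 49.1, 36.7 and 44.5 in knockouts. These calls depended on the scaling and on single animals: 0 of the 5 genes were called on the FPKM as deposited, 3 after quantile normalization and 2 with the nuclear total set equal. The Acsl1 and Acad11 calls each held in 6 of 10 alternative settings and in 7 of 14 fits without 1 animal. Acsl1 lost its call without any 1 of the 6 animals at 30 °C or knockout 2 at 22 °C, and Acad11 without any 1 of the animals at 30 °C other than knockout 2, or without knockout 2 or 4 at 22 °C. Crat lost its call without any 1 of the controls at 30 °C or knockout 1 or 3 there, and Eci2 kept it in all 14 such fits. Acsl5, the synthetase not called at 30 °C, had a log2 fold change of -0.38 ± 0.29 (SE; limma adjusted p = 0.441).

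Of the 10 peroxisomal genes, 2 fell in knockouts at 30 °C, both of them thiolases. Acaa1a, the straight-chain 3-ketoacyl-CoA thiolase, was 73.6, 65.4 and 62.6 in controls and 47.7, 49.02 and 44.01 in knockouts (log2 change -0.51, SE 0.10, limma adjusted p = 0.00789). Scp2, whose gene also gives the sterol carrier thiolase of branched chains, was 162, 187 and 186 in controls and 114, 129.5 and 112 in knockouts (log2 change -0.58, SE 0.16, limma adjusted p = 0.0266). Neither gene had overlapping groups. At 22 °C Acaa1a was 59.7, 60.9, 62.5 and 61.3 in controls and 43.3, 50.8, 56.6 and 48.9 in knockouts, again apart but not called (log2 change -0.29, SE 0.09, limma adjusted p = 0.123). Scp2 was 372, 336, 243 and 244 in controls and 245, 229, 227 and 257 in knockouts there, with overlap. The median log2 fold change of the 10 at 30 °C was -0.41, against -0.72 for the 19 mitochondrial genes, and no test was made of that difference. After quantile normalization these medians were -0.41 and -0.43. Of the 10 genes 0 were called on the FPKM as deposited, 2 after quantile normalization (Acaa1a and Pecr) and 1 with the nuclear total set equal (Acaa1a). Acaa1a lost its call on the FPKM as deposited and kept it in all 14 fits without 1 animal, and Scp2 lost it in those 3 scalings and without control 2 or 3, or knockout 1 or 3, at 30 °C.

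The other peroxisomal members were not called in a comparison of genotypes in the fit used here, though some were in alternatives. Acox3, an oxidase of branched-chain acyl-CoA, was 18.1, 16.6 and 19.4 in controls and 17.4, 21.5 and 16.4 in knockouts at 30 °C. At 22 °C it was 17.2, 15.4, 15.6 and 11.98 in controls and 15.8, 14.8, 14.1 and 15.3 in knockouts, and its 95% intervals lay close around 0 (-0.26 to 0.31 at 30 °C and -0.24 to 0.25 at 22 °C). Ehhadh, a bifunctional hydratase and dehydrogenase, was 14.6, 17.6 and 12.5 in controls and 17, 14.9 and 7.77 in knockouts at 30 °C. It was 45.5, 69.1, 44.2 and 35.5 in controls and 91.5, 50.8, 29.1 and 52.6 in knockouts at 22 °C, where 1 knockout stood above the rest. Acaa1b, the near-identical straight-chain thiolase copy, was 14.7, 10.9 and 13.2 in controls and 19.5, 11.7 and 9.27 in knockouts at 30 °C. At 22 °C Acaa1b was 33.9, 36.9, 34.5 and 31.6 in controls and 36.5, 39.5, 28.8 and 31.8 in knockouts. Acaa1b groups overlapped at both temperatures, with intervals of -0.44 to 0.45 and -0.40 to 0.38. Abcd2, a transporter of very-long-chain acyl-CoA, was 16.8, 11.1 and 11.2 in controls and 9.53, 8.10 and 10.2 in knockouts at 30 °C. It was 15.6, 19.3, 28.1 and 14.7 in controls and 7.97, 16.9, 15.99 and 17.6 in knockouts at 22 °C, with the lowest value in knockout 1. Among the rest, Pecr, the trans-2-enoyl-CoA reductase, came closest to a call at 30 °C (log2 change -0.66, SE 0.21, limma adjusted p = 0.0523), and Abcd3, Hsd17b4 and Crot had log2 fold changes of -0.56, -0.39 and -0.21. Pecr was called lower at 30 °C in 5 of 10 alternative settings and in 2 of 14 fits without 1 animal. Abcd3 was called lower there in 3 settings, Hsd17b4 in 2 and Crot in 0.

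At 22 °C the median log2 fold change of the members was -0.09, against 0.00 for all genes, and 23 of 34 estimates were below 0. This median depended on single control animals: it was -0.39 without the R controls, -0.24 without control 4, 0.03 without control 1, 0.00 without control 2 and -0.29 with sample weights. Its direction also depended on the scaling, being 0.21 on the FPKM as deposited, 0.11 after quantile normalization and 0.05 with the nuclear total set equal, where the median of all genes was 0.24, 0.00 and 0.12. Over all genes 119 were called higher and 139 lower at 22 °C, against 3167 and 81 on the FPKM as deposited. Both E controls exceeded all 4 knockouts in 22 members, and both R controls were below all 4 knockouts in 7. These arrangements were not counted over all genes either. Without the R controls 6 members were called at 22 °C, all of them lower (Acadm, Hadh, Echs1, Eci2, Scp2 and Pecr), and the Acot2 call was lost.

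**Figure D3:**
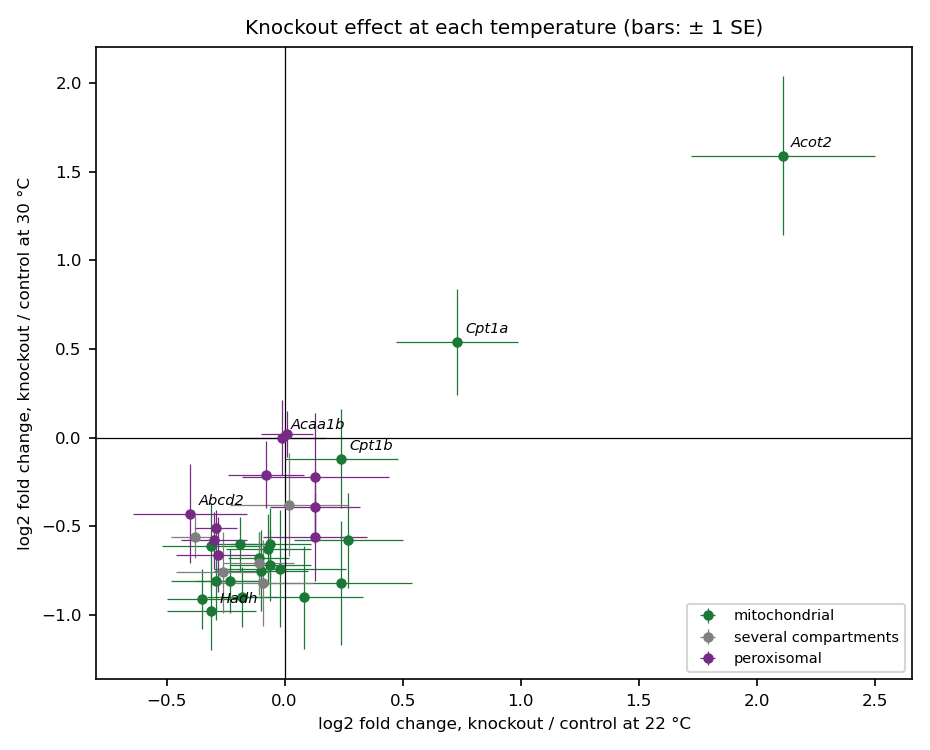
Log2 fold change of knockout over control at 22 °C (x axis) and at 30 °C (y axis) for the 34 members, with bars of ± 1 SE. Acot2 is at 2.11 and 1.59, and 30 of 34 members lie below 0 on the y axis while the x values lie on both sides of 0.

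The knockout effect at 22 °C minus that at 30 °C was positive in 32 of the 34 members, with a median of 0.52 on the log2 scale against -0.05 for all genes. This median was 0.22 without the 2 R controls, 0.39 without control 4 alone and 0.41 with sample weights. None of the 34 differences was called, and 0 of 13079 genes (0%) were. At an unadjusted p under 0.05 the interaction held 11 members and 1694 genes. The lowest adjusted p was that of Etfb, whose knockout effect differed by 0.72 ± 0.23 (SE; limma adjusted p = 0.235). It was called with sample weights and without knockout 2 of the 30 °C group, and its adjusted p was 0.0396 to 0.52 over all alternatives. Both fold changes that enter each difference were measured in separate animals, but temperature went with sex in them, so the difference cannot be told apart from one between sexes.

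Animals at 22 °C had more messenger RNA for fatty acid activation and for several peroxisomal enzymes than animals at 30 °C, in both genotypes. Of the 34 members 10 were called higher in controls and 26 in knockouts, 0 were called lower in either, and the shares of all genes were 18.2% higher and 20.6% lower in controls and 21.8% higher and 29.4% lower in knockouts. On the FPKM as deposited 10 members were called higher and 2 lower in controls, and 23 and 1 in knockouts. The member with the largest difference was Acsl5, a synthetase for long-chain acyl-CoA. Its scaled FPKM was 176, 153, 100.2 and 69.8 in controls and 122, 90.5, 112 and 159 in knockouts at 22 °C, and 19.4, 25.3 and 25.1 in controls and 21.7, 16.2 and 15.2 in knockouts at 30 °C. The ranges were far apart, with log2 fold changes of 2.30 ± 0.28 (SE; limma adjusted p = 0.000221) in controls and 2.69 ± 0.28 (SE; limma adjusted p = 3.3e-05) in knockouts. Abcd3, the main acyl-CoA transporter of the peroxisomal membrane, was 148, 147, 87.3 and 69.5 in controls and 132, 121, 92.3 and 131 in knockouts at 22 °C. At 30 °C it was 39.05, 39.4 and 43.4 in controls and 25.9, 32.6 and 23.7 in knockouts, below every animal at 22 °C (in controls, log2 change 1.38, SE 0.24, limma adjusted p = 0.00121, and in knockouts, log2 change 2.08, SE 0.24, limma adjusted p = 5.56e-05). Ehhadh and Acaa1b followed the same order, with log2 fold changes in controls of 1.61 ± 0.34 (SE; limma adjusted p = 0.00331) and 1.35 ± 0.19 (SE; limma adjusted p = 0.000522), and in knockouts of 1.96 and 1.33. The other six genes called in controls were Acsl1 (0.91), Slc25a20 (0.82), Cpt2 (0.74), Scp2 (0.72), Decr1 (0.60) and Eci2 (0.50). Without control 4 of the 22 °C group, 17 members were called higher and 1 lower in controls. Without both R controls 23 were called higher and 0 lower, and with sample weights 22 and 1. The gene called lower was Etfb, which had no call in the fit used here (log2 change -0.41, SE 0.16, limma adjusted p = 0.0598). Etfb was called lower in controls in 4 of 10 alternative settings and 3 of 14 fits without 1 animal.

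Cell type markers differed between temperatures as well. In knockouts 11 of 12 macrophage markers were called lower at 22 °C than at 30 °C and 1 higher, with a median log2 fold change of -2.64, and in controls 7 were lower and 1 higher, with a median of -0.84. All 6 fibroblast markers were called lower in knockouts and 1 in controls. Of 10 brown adipocyte markers 7 were called higher and 0 lower in knockouts, and 5 higher and 1 lower in controls. All 5 tested T and B cell markers were called lower in knockouts and 2 in controls. Of 6 endothelial markers 0 were called in knockouts and 1, lower, in controls. Over all genes 20.6% were called lower and 18.2% higher in controls, and 29.4% and 21.8% in knockouts. The fibroblast and endothelial counts in controls do not set those lists apart. Of 12 tested skeletal muscle markers 0 were called in either genotype. In knockouts all 12 had estimates below 0, with a median of -2.05, and 10 had no overlap between temperatures. That arrangement was not counted over all genes for temperature, so it cannot be read as particular to the muscle markers. Their sum in knockouts was 717 to 1831.5 at 22 °C and 2515 to 10334 at 30 °C. In controls 9 had estimates above 0 and 3 below, with a median of 0.29. The sum of the brown adipocyte markers was 18616 to 24753 scaled FPKM in controls and 14267 to 18897 in knockouts at 22 °C, above the sums in the same genotype at 30 °C given before. The fibroblast markers summed to 171 to 226 and 151 to 307 at 22 °C. The part of these shifts in the members' temperature differences was not tested.

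Of the 19 mitochondrial genes 3 were called higher in controls and 15 in knockouts, with medians of 0.14 and 0.79. Over all genes 18.2% were called higher in controls and 21.8% in knockouts, so the count in controls does not set these genes apart. Trifunctional Hadha and Hadhb had log2 fold changes of 0.42 and 0.17 in controls, neither called, and 1.27 ± 0.25 (SE; limma adjusted p = 0.00127) and 1.14 ± 0.27 (SE; limma adjusted p = 0.00394) in knockouts. Without the 2 R controls both were called in controls, at 0.84 and 0.67, as they were with sample weights, at 0.66 and 0.46, and Hadha also without control 4. Acaa2 and Eci1 had estimates just below 0 in controls (-0.12 and -0.14) and were called higher in knockouts (0.44 and 0.43). The Acaa2 call in knockouts held in 5 of 10 alternative settings and 10 of 14 fits without 1 animal, and its groups overlapped. That of Eci1 held in 8 of 10 settings and 12 of 14 fits. The differences between genotypes in these temperature estimates are the same interaction as above, in which no member was called. Of the 10 peroxisomal genes 4 were called higher in controls and 6 in knockouts, against the same shares of all genes, with medians of 0.49 and 0.67. Acox3 was the peroxisomal gene with estimates below 0 in both genotypes (-0.26 and -0.27), without a call.

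The balance between the compartments was described in each animal as the mean log2 level of the 19 mitochondrial genes minus that of the 10 peroxisomal genes. It was 2.61 ± 0.10 (SD, n = 4) in controls and 2.78 ± 0.16 (SD, n = 4) in knockouts at 22 °C, and 2.97 ± 0.14 (SD, n = 3) in controls and 2.80 ± 0.12 (SD, n = 3) in knockouts at 30 °C. The controls ranged from 2.51 to 2.75 at 22 °C and from 2.81 to 3.08 at 30 °C and did not overlap, whereas the knockouts ranged from 2.61 to 2.99 and from 2.67 to 2.92. The genotypes overlapped at each temperature, with differences of 0.17 at 22 °C and -0.17 at 30 °C between group means, and the latter was 0.09 after quantile normalization. Summed scaled FPKM of the mitochondrial genes was 14.8 ± 0.48 times that of the peroxisomal genes in controls at 22 °C (SD, n = 4) and 20.9 ± 1.4 times in controls at 30 °C (SD, n = 3). In knockouts the sums stood at 14.4 ± 1.4 (SD, n = 4) and 16.9 ± 1.7 (SD, n = 3). The mitochondrial sum was 9391 to 11345 in controls and 5256 to 7572 in knockouts at 30 °C, and the peroxisomal sum 484 to 510.5 and 330.3 to 402, so both sums were lower in every knockout than in every control. These values carry no test, since the members were chosen with earlier results known.

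**Figure D4:**
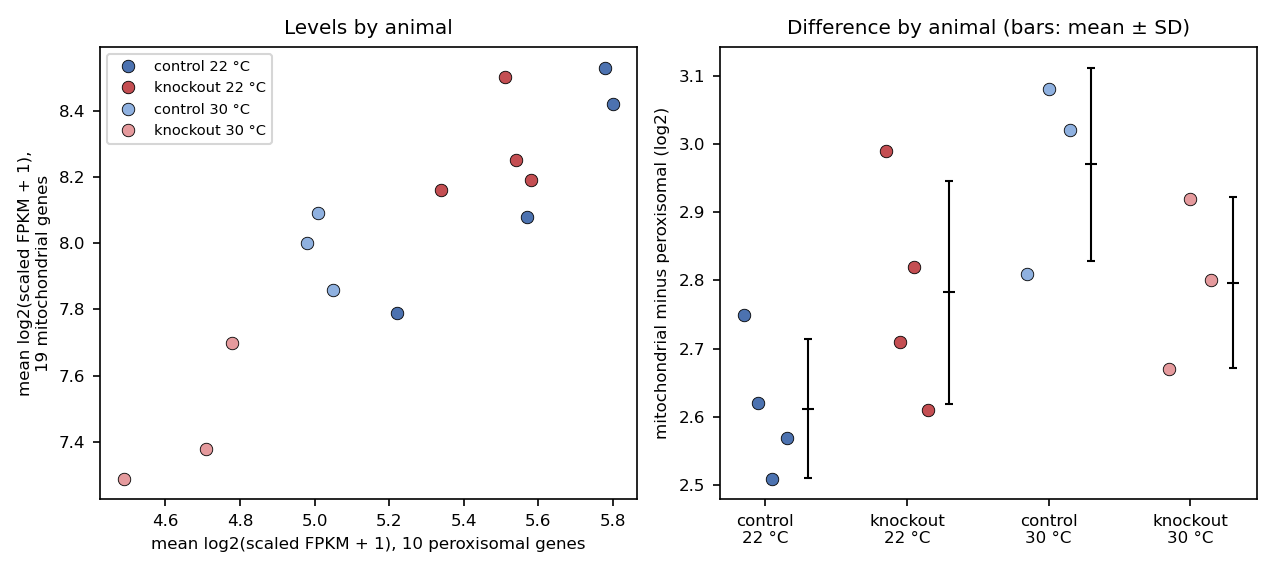
Left: mean log2(scaled FPKM + 1) of the 10 peroxisomal genes (x axis) and of the 19 mitochondrial genes (y axis) in each animal. Right: their difference by group with mean ± SD; controls at 30 °C lie at 2.81 to 3.08, above the controls at 22 °C at 2.51 to 2.75, and the knockouts of both temperatures overlap.

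Paired enzymes for 1 step differed in how they were balanced. The ratio of Acaa1a to Acaa1b FPKM was 1.65 to 1.94 in controls and 1.19 to 1.97 in knockouts at 22 °C, and 4.72 to 6.03 and 2.44 to 4.75 at 30 °C, with no overlap between temperatures. Of the 2 peroxisomal bifunctional enzymes, Hsd17b4, the form for branched chains and bile acid precursors, exceeded Ehhadh 1.69 to 4.46 times at 22 °C and 4.59 to 10.6 times at 30 °C. Cpt1a was 0.284 to 1.002 times Cpt1b at 22 °C and 0.651 to 2.01 times at 30 °C. Knockouts gave the highest Cpt1a ratio at each temperature, and their ranges overlapped those of the controls. The Acaa1 ratio rests on copies whose reads may be split between them.

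Most genes tested on 2 wider lists, chosen with earlier results known, had estimates below 0 in knockouts at 30 °C too. The lists also hold genes outside the 2 oxidation routes, such as Acot1, which encodes a cytosolic form, and Pxmp2, a membrane channel protein. Some of the calls counted here are of such genes. Of 23 genes tested on the mitochondrial list 9 were called lower and 0 higher, with a median of -0.56. Over all genes 5.28% were called lower and 8.82% higher at 30 °C. The lists were not counted under the other scalings, with which fewer genes were called lower on the FPKM as deposited. Among the called mitochondrial genes the largest decreases were in Echdc3 (-0.90), Hsd17b10 (-0.86) and Echdc2 (-0.79). Hsd17b10, a hydroxyacyl-CoA dehydrogenase that is also a subunit of mitochondrial RNase P, was called at 22 °C as well (log2 change -0.64, SE 0.10, limma adjusted p = 0.00545). Of 25 other tested peroxisomal genes 8 were called lower and 1 higher at 30 °C, with a median of -0.19. Slc27a2, an activator of very-long-chain fatty acids, was 61.2, 59.2 and 61.5 in controls and 19.7, 33.6 and 11.2 in knockouts (log2 change -1.58, SE 0.27, limma adjusted p = 0.00323). Acox2, the oxidase of branched chains and bile acid precursors, was 0.119 to 0.893 scaled FPKM in the 7 controls and 1.16 to 4.12 in the 7 knockouts. It was called higher at both temperatures (1.15 at 22 °C and 1.35 at 30 °C). Its control values were near the floor and below 1 FPKM after scaling, so passing the filter of 1 FPKM rested on the knockouts. The calls of Acox2 are therefore not independent of the filter. Among 12 general mitochondrial proteins the median was -0.17 at 30 °C, and 2 were called lower, where 5.28% of all genes were.

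Of the 19 regulators of the pathway 1 was called higher in knockouts at 22 °C, where 0.91% of all genes were, and at 30 °C 1 was called higher and 3 lower, where 8.82% and 5.28% of all genes were; counts this small do not set the list apart. Ppargc1a, which encodes PGC-1α, was 8.98, 13.3, 22.5 and 14.7 in controls and 37.2, 20.2, 47.6 and 30.5 in knockouts at 22 °C (log2 change 1.14, SE 0.26, limma adjusted p = 0.0411). At 30 °C it was 2.75 to 4.10 and 3.67 to 4.47, with overlap. Acacb, the mitochondrial acetyl-CoA carboxylase whose malonyl-CoA inhibits Cpt1, fell in knockouts at 30 °C (log2 change -1.03, SE 0.24, limma adjusted p = 0.0135), as did Klf15 (-0.77) and the deacetylase gene Sirt3 (-0.55), while Ppard rose (0.50). Ppara, the receptor that drives many of the members, had log2 fold changes of 0.79 ± 0.27 (SE; limma adjusted p = 0.163) at 22 °C and -0.36 ± 0.31 (SE; limma adjusted p = 0.492) at 30 °C.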

How the data were processed

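RNA from brown adipose tissue of 14 mice was sequenced on an Illumina instrument, per the labels' protocols. The authors deposited 1 table of FPKM per gene and animal; the build mm9 is named, with no role, in the submitters' processing notes, and the aligner, counter and annotation are not given in the sources used here. Depth was recovered from the steps between low values, of which 88.5 to 91.3% fell within 0.02 of a whole read for genes with 1 transcript. Libraries were scaled by the median ratio to the geometric mean over 10049 nuclear genes. Genes that reached 1 FPKM in 3 or more libraries were kept (13079), and log2(scaled FPKM + 1) was fitted with limma 3.58.1 in R 4.3.3 (lmFit, eBayes with trend, a mean for each of the 4 groups), so fold changes of low genes are understated. Benjamini-Hochberg adjustment ran over all genes tested, and an adjusted p under 0.05 was called. P-values measure the spread between these animals.

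Members, lists and tests were chosen with earlier results of these data known. Every member is accounted for; values in every animal are given for members called between genotypes and for 8 members of defining steps, and genes of other lists are named where called between genotypes (at most 3 in each direction) or where they are regulators. Acot1 and members named elsewhere by range were added after their values were seen. Symbols came from GENCODE M21, which matched 34490 of 35275 identifiers, similar transcripts from blastn 2.17.0, and promoters from RefSeq on GRCm38.p6, which is not the build in the notes. Alternatives covered the pseudocount (0.1), the filter, the scaling, sample weights, robust eBayes, fits to the compared groups alone, and leaving out the R controls or each animal in turn. The results of some neighbouring gene lists are not reported here. The fit was also run on simulated data with the same spread for all genes and no shift of whole libraries. Those settings are simpler than these data, so that run cannot bear on the calls given here. Tables and plots used matplotlib 3.10.9, pandas 2.3.3 and numpy 2.4.6 under Python 3.11.15.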

Additional observations from a re-analysis of the deposited data

Results flagged for a closer look

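In groups of 4 animals, a member was listed when its highest or lowest animal stood apart from the others by more than the limit of Dixon's test. Of the 68 sets of 4 values (34 members in 2 groups) 3 were listed, and chance gives about 1 in 20. Cpt1b was 8.42 scaled FPKM in control 1 at 22 °C, where the nearest control had 10.4. Etfb was 1989.6 in control 4 at 22 °C, where the nearest had 1598. Abcd2 was 7.97 in knockout 1 at 22 °C, where the nearest had 15.99; the same animal had the highest Acot2, Cpt1a, Cpt1b and Ehhadh of its group.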

How the results depend on the processing

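At 30 °C 16 of the 34 members were called between genotypes. The number called was 10 without the filter on low values, 5 on the FPKM as deposited and 8 after quantile normalization. It was 9 with the nuclear total set equal, 26 with sample weights and 26 without the R controls. These totals are over all 34 members and can include members outside the 16. At 22 °C 1 was called, against 2 as deposited, 8 with sample weights, 0 with the compared groups alone and 6 without the R controls. For temperature in controls 10 were called, against 23 with sample weights and 23 without the R controls. In the interaction 0 were called, against 1 (Etfb) with sample weights. Leaving out each animal in turn gave 6 to 22 members at 30 °C, 0 to 2 at 22 °C (0 without knockout 2, 2 without knockout 3), 9 to 18 for temperature in controls, 21 to 28 in knockouts and 0 to 1 in the interaction. The cause of these shifts was not tested. No called member changed sign in any alternative. The mitochondrial minus peroxisomal level was 0.169 higher in knockouts at 22 °C and 0.327 after quantile normalization, -0.174 at 30 °C and 0.090, and -0.013 between temperatures in knockouts and -0.173; the cause was not tested. Without 1 animal it was 0.099 to 0.226, -0.255 to -0.110 and -0.082 to 0.048, and -0.437 to -0.299 between temperatures in controls. No paired analysis was possible because the animals' identifiers carry no number that is shared between groups. With 3 or 4 animals a group, several members whose groups did not overlap were not called.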

Other observations

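Of 10 PPAR alpha targets outside the members 1 was called lower in knockouts at 30 °C, where 5.28% of all genes were. This was Cidea (-0.78 on the log2 scale), and the list median was -0.46. At 22 °C none of these 10 was called between genotypes by limma. There 4 of the 10 had an unadjusted p under 0.05, as did 2060 of the 13079 genes tested. Counts this small do not set the list apart. Pxmp2, a channel protein of the peroxisomal membrane, was called lower in knockouts at both temperatures (at 22 °C, log2 change -0.90, SE 0.14, limma adjusted p = 0.00614, and at 30 °C, log2 change -0.98, SE 0.16, limma adjusted p = 0.00295).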
